A study of Mus musculus with 12 samples.

Results

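The effect of tumour-conditioned medium on mouse osteoblasts was measured over both genotypes of the series together. All 12 of its 12 samples were used, chosen by their labelled medium. Of these, 2 deposited libraries of unconditioned wild-type cells hold the same data, so 11 distinct libraries entered the comparison. The cells were primary osteoblast-like cells of strain C57Bl/6J, freed with collagenase from the skull vaults of neonatal mice. One set of mice was wild-type (WT) and the other lacked F2rl1 (F2rl1 -/-, here KO), the gene of protease-activated receptor 2, a receptor switched on by proteolytic cleavage. All cells were cultured for 48 h before the medium was replaced, and all then spent 4 days in BRFF-HPC1 medium with 20% serum, which is a medium made for prostate cells. In the unconditioned groups this medium was fresh, with 2 distinct WT and 3 KO libraries. In the conditioned groups it had first stood for 48 h on MDA-PCa-2b, a cell line from human prostate cancer, with 3 WT and 3 KO libraries. The pooled medium effect is the mean of the change in WT and the change in KO, so each genotype carries the same weight.

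Osteoblasts build bone by secreting a collagen matrix that is later mineralised, and they steer bone-resorbing osteoclasts through RANKL and its decoy OPG. Medium that has stood on other cells carries their secreted proteins, vesicles and waste and has lost nutrients that those cells took up. Cells read such changes through several switches known from other systems. Nutrient sensing at the lysosome surface runs through the Rag GTPases and the transcription factors TFEB, TFE3 and MITF. Double-stranded nucleic acids and type I interferon switch on antiviral genes through factors such as STAT2 and IRF9. Glucocorticoids act through the receptor encoded by Nr3c1.

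Each library held 15023994 to 16956754 fragments assigned to genes. Levels are in CPM, fragment counts scaled to a common library size and corrected for library composition, and are not comparable between genes of different length. Library values are listed with WT before KO and in the order of their numbers in the deposited table, which are 0 and 2 for unconditioned WT and 0 to 2 for each other group. On the first principal component, which held 46.65% of the variance, the 5 unconditioned libraries lay between -37.27 and -30.76. The conditioned libraries were spread more widely, with WT at 16.4, 26.55 and -9.646 and KO at -4.835, 64.76 and 79.1. Conditioned KO library 0 and conditioned WT library 2 thus stood nearer to the unconditioned libraries than the other conditioned ones did. On the second component (26.04%), unconditioned WT libraries lay at 8.016 and -6.817 and unconditioned KO libraries at -14.85, 41.93 and 51.02. The conditioned libraries lay at -41.83, -4.177 and -39.77 in WT and at -31.29, 14.27 and 23.49 in KO. In either medium, KO library 0 thus lay below KO libraries 1 and 2. One sample titled as unconditioned WT carries the KO genotype label, and nothing used here shows which of the 2 distinct libraries of that group it is, or whether it is among them.

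The targeted gene did not separate the genotypes. F2rl1 (chromosome 13, 95511730 to 95525240, build GRCm38) had 25, 20, 33, 33 and 46 fragments in the unconditioned libraries and 14, 23, 14, 31, 13 and 12 in the conditioned ones. The unconditioned KO libraries thus held at least as many fragments as the WT ones, and the table does not show which part of the gene was removed. The names WT and KO below are those of the labels. The pooled log2 change of F2rl1 with conditioned medium was -0.81 (SE 0.32, adjusted p = 0.1), which did not pass the threshold, while without conditioned KO library 0 it was -1.13 (adjusted p = 0.00657).

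Markers of the labelled cell type lay at unlike levels. Of 6 osteoblast markers, Runx2, the master regulator of the lineage, lay at 80.5 to 96.5 CPM in unconditioned medium, and Col1a1, which encodes the main bone collagen, at 12544 to 22126 CPM. Alpl, a phosphatase gene, lay at 34 to 106 CPM. Ibsp, a gene of mineralising osteoblasts, was near the detection limit at 0.46 to 0.839 CPM. The levels of Sp7 and Bglap, also on the list, are not given here, so no verdict on the cells is drawn. Lymphocyte markers were almost absent, with 7 of 8 under 10 fragments in every library and, among others, Cd79b and Cd8a at 0. The 20 macrophage markers summed to 53.7 to 105 CPM of plain library totals in unconditioned and 60.1 to 161 in conditioned libraries. The 12 osteoclast markers summed to 159.7 to 201 and 304 to 494, with Dcstamp and Siglec15 at 0, and the 10 endothelial markers to 6.20 to 10.9 and 11.2 to 21.1, with Cldn5 at 0. Chondrocyte markers, 8 of 9 of them in the table, summed to 1751 to 2862 and 937 to 2559, and the 15 skeletal muscle markers to 47.1 to 294 and 30.3 to 231. The 10 keratinocyte markers summed to 21.4 to 66.3 and 33.4 to 80.3, and the 10 glial and neural markers to 52.03 to 76.3 and 45.9 to 65.1. The 8 smooth muscle and pericyte markers summed to 1101 to 1449 and 217 to 1092. In bulk RNA, fewer cells of a type and less RNA per cell cannot be told apart.

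Conditioned medium changed 2787 of 13603 tested genes, or 20.5%, at an adjusted p under 0.05 (edgeR quasi-likelihood test, Benjamini-Hochberg adjustment). Of these, 1416 genes were higher (10.4% of those tested) and 1371 were lower (10.1%). The change was over 2-fold for 942 genes, 437 higher and 505 lower, and over 4-fold for 123 higher and 121 lower ones. In 1987 of the called genes all 6 conditioned libraries lay on one side of all 5 unconditioned ones, which was so for 16.4% of all genes tested. An unadjusted p under 0.05 was found for 4942 genes, against 680 for 5% of those tested.

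How many genes passed depended on single libraries. Without conditioned KO library 0 the count was 5651. Without unconditioned WT library 0 or 2 it was 1231 or 1214, since 1 library of that group then remained. Leaving out unconditioned KO library 1, conditioned KO library 1 or conditioned WT library 0 gave 1691, 1684 and 1644. No gene called with all 11 libraries changed sign in any of these fits. Scaling by library totals alone called 2410 genes higher and 1014 lower, because it moved the median log2 change of all genes from 0.02 to 0.15.

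**Figure D1:**
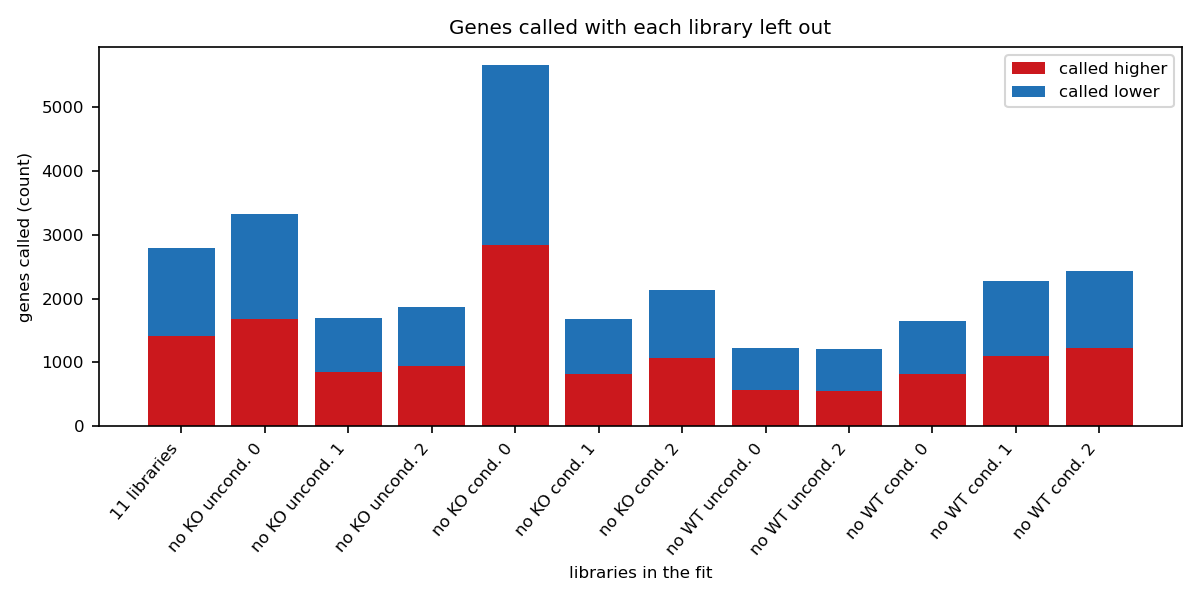
Number of genes called higher (red) and lower (blue) in the pooled comparison (y axis, count) with all 11 libraries and with each library left out (x axis). The bar without conditioned KO library 0 reaches 5651, and the bars without either unconditioned WT library are the lowest at 1231 and 1214.

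The genes of the lysosome rose together. The lysosome is the acidic compartment in which cells break down proteins, lipids and sugars. Of 55 listed genes of lysosomal enzymes and membrane proteins, all tested, 40 were called higher and 2 lower (72.7% and 3.64%, against 10.4% and 10.1% of all genes), with a median log2 change of 0.59 against 0.02 over all genes. In 36 of them every conditioned library lay above every unconditioned one, as did 7.98% of all genes. The palindrome TCACGTGA, the core of an element bound by TFEB and its relatives, stood in 6 (12.2%) of the 49 promoter windows found for these genes. It stood in 0.974% of all 32851 windows. Counted by gene, it stood in 13.6% of the list's genes with a window and in 2.14% of tested genes with one. These windows, from RefSeq on build GRCm38.p6, run from 250 bases before to 50 after an annotated gene start, and motifs were searched on both strands. A match is a string of letters in a window and does not show binding. The stretches that follow surround the palindrome, in capitals, in the 3 called members of smallest p-value that hold it upstream of the start, at chrX:134601206-134601253, minus strand, chr2:164833723-164833770, plus strand and chr2:25356379-25356426, minus strand.
Gla: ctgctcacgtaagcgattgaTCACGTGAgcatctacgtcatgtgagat
Ctsa: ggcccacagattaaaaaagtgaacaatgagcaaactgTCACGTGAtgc
Dpp7: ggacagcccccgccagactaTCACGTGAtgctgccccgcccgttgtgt

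Gla encodes alpha-galactosidase A, which trims galactose from glycolipids. Its level (chromosome X, 134588169 to 134601005) was 33.97, 36.2, 39.7, 24.9 and 27.4 CPM in the unconditioned libraries and 184, 109.8, 116, 117, 147 and 152 CPM in the conditioned ones. The groups did not overlap, and means were 32.4 ± 6.18 CPM without and 138 ± 28.8 CPM with conditioning (SD, n = 5 and 6), a change of 2.07 on the log2 scale (SE 0.18, adjusted p = 0.000354). Ctsa, which encodes the protective protein cathepsin A, had 247 to 268 CPM without and 489.8 to 669.9 CPM with conditioning (log2 change 1.17, SE 0.11). Hexa, the alpha subunit of beta-hexosaminidase, rose by 1.52 on the log2 scale (SE 0.14). Lamp1, an abundant protein of the lysosomal membrane, rose from 725–969 to 1769.8–2246 CPM (log2 change 1.22, SE 0.13, adjusted p = 0.000632). Among cathepsins, Ctsd rose by 0.74 (SE 0.15; adjusted p = 0.00745, and 0.0523 without unconditioned WT library 2) and Ctsk, which degrades bone collagen and is best known from osteoclasts, by 1.39 (SE 0.19). Npc1, a cholesterol exporter of the lysosome, rose by 0.90 (SE 0.08).

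The proton pump that acidifies the lysosome moved the same way. Of 21 tested subunit genes of the vacuolar ATPase (23 listed), 18 were called higher and none lower. These were 85.7% and 0%, against 10.4% and 10.1% of all genes. The list's median log2 change was 0.91 (0.84 in WT and 0.93 in KO). Atp6v0d2, whose product is a membrane subunit abundant in osteoclasts, had 0.723, 0.769, 1.15, 1.62 and 1.35 CPM in unconditioned and 5.86, 4.66, 4.30, 3.67, 5.29 and 4.47 CPM in conditioned libraries. All conditioned values exceeded all unconditioned ones, and the log2 change was 2.21 (SE 0.20, adjusted p = 0.000354). Atp6v1a, the catalytic subunit, rose by 0.77 (SE 0.10), from 197–245 to 321–461 CPM. Its promoter window also holds the palindrome, which stood in 13.6% of the 22 windows of this list, or 4.55% counting upstream bases only (chr16:44139364-44139411, minus strand, capitals).
Atp6v1a: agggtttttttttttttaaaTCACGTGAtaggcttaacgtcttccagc

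Atp6v1c1, Atp6v1e1, Atp6v1h and Atp6ap2, other parts of the pump or its accessory proteins, rose by 1.05, 0.74, 0.83 and 1.42 (SE 0.11, 0.08, 0.17 and 0.10). The count of called pump genes was 17 or 18 without conditioned KO library 0 or either unconditioned WT library. The osteoclast markers given above also summed higher in every conditioned library than in any unconditioned one, while the ranges of the macrophage sum overlapped. Of their 7 and 17 tested members, 2 each were called higher: Ctsk and Atp6v0d2, and Cybb and Fcer1g. Cybb, an oxidase subunit of phagocytes, lay at 0 to 0.353 CPM in unconditioned and 0.485 to 2.38 CPM in conditioned libraries. The part of such cells in the lysosomal values was not tested.

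Regulators at the lysosome surface rose as well, while the transcription factors themselves were not called. Of 20 listed genes of the Rag, folliculin and MiT/TFE group, 11 were called higher and none lower (median log2 change 0.74). These were 55% and 0%, against 10.4% and 10.1% of all genes. Rragd, a Rag GTPase that helps recruit the growth kinase mTORC1 to the lysosome, had 4.20, 2.38, 3.51, 1.55 and 2.16 CPM in unconditioned and 38.7, 29.6, 21.7, 15.2, 57.4 and 63.5 CPM in conditioned libraries. The groups did not overlap, with the lowest conditioned value in KO library 0, and the log2 change was 3.71 (SE 0.43, adjusted p = 0.000922). Rragc, its fellow GTPase, rose by 0.88 (SE 0.12), and Flcn, Fnip1 and Fnip2, which form the folliculin complex that acts on these GTPases, rose by 1.51, 1.16 and 1.44 (SE 0.15, 0.12 and 0.15). Ppargc1a, a coactivator of mitochondrial gene expression, went from 2.04, 3.01, 1.28, 1.27 and 1.75 CPM to 24.7, 11.6, 13.4, 9.33, 46.98 and 53.4 CPM (log2 change 3.69, SE 0.48, adjusted p = 0.00143). The transcripts of Tfeb, Tfe3 and Mitf had log2 changes of -0.19, -0.04 and -0.22 (SE 0.21, 0.10 and 0.12, adjusted p = 0.55, 0.824 and 0.211), and RNA levels do not show where their proteins reside. The palindrome TCACGTGA stood in 0 of the 24 windows of this list. The hexamer CACGTG, which it contains, stood in 20.8% of them and in 7.15% of all windows. Counted by gene, CACGTG stood in 26.3% of the list's genes with a window and in 11.7% of tested genes with one. It is capitalised here in the 2 called regulators of smallest p that hold it upstream of the start, Lamtor1, an anchor of the Rag GTPases (chr7:101905749-101905794, plus strand), and Fnip1 (chr11:54438084-54438129, plus strand).
Lamtor1: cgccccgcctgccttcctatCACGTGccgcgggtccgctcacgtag
Fnip1: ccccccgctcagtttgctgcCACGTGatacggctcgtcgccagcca

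Autophagy genes were less uniform, with 28.6% called higher and 10.7% lower, against 10.4% and 10.1% of all genes. Of 28 tested, 8 were called higher and 3 lower, with a median log2 change of 0.13, and 4 were called higher without either unconditioned WT library. Sqstm1, the cargo receptor p62, rose from 251–330.2 to 421–989.6 CPM (log2 change 1.17, SE 0.21, adjusted p = 0.00511). Optn, another receptor, and Uvrag, a factor in the maturation of autophagosomes, rose by 0.66 and 0.64 (SE 0.10 and 0.08). Wipi1, which acts early in autophagosome formation, had a change of -1.03 on the log2 scale (SE 0.29, adjusted p = 0.0322), a call that ended on leaving out any 1 of 7 libraries (adjusted p up to 0.11).

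**Figure D2:**
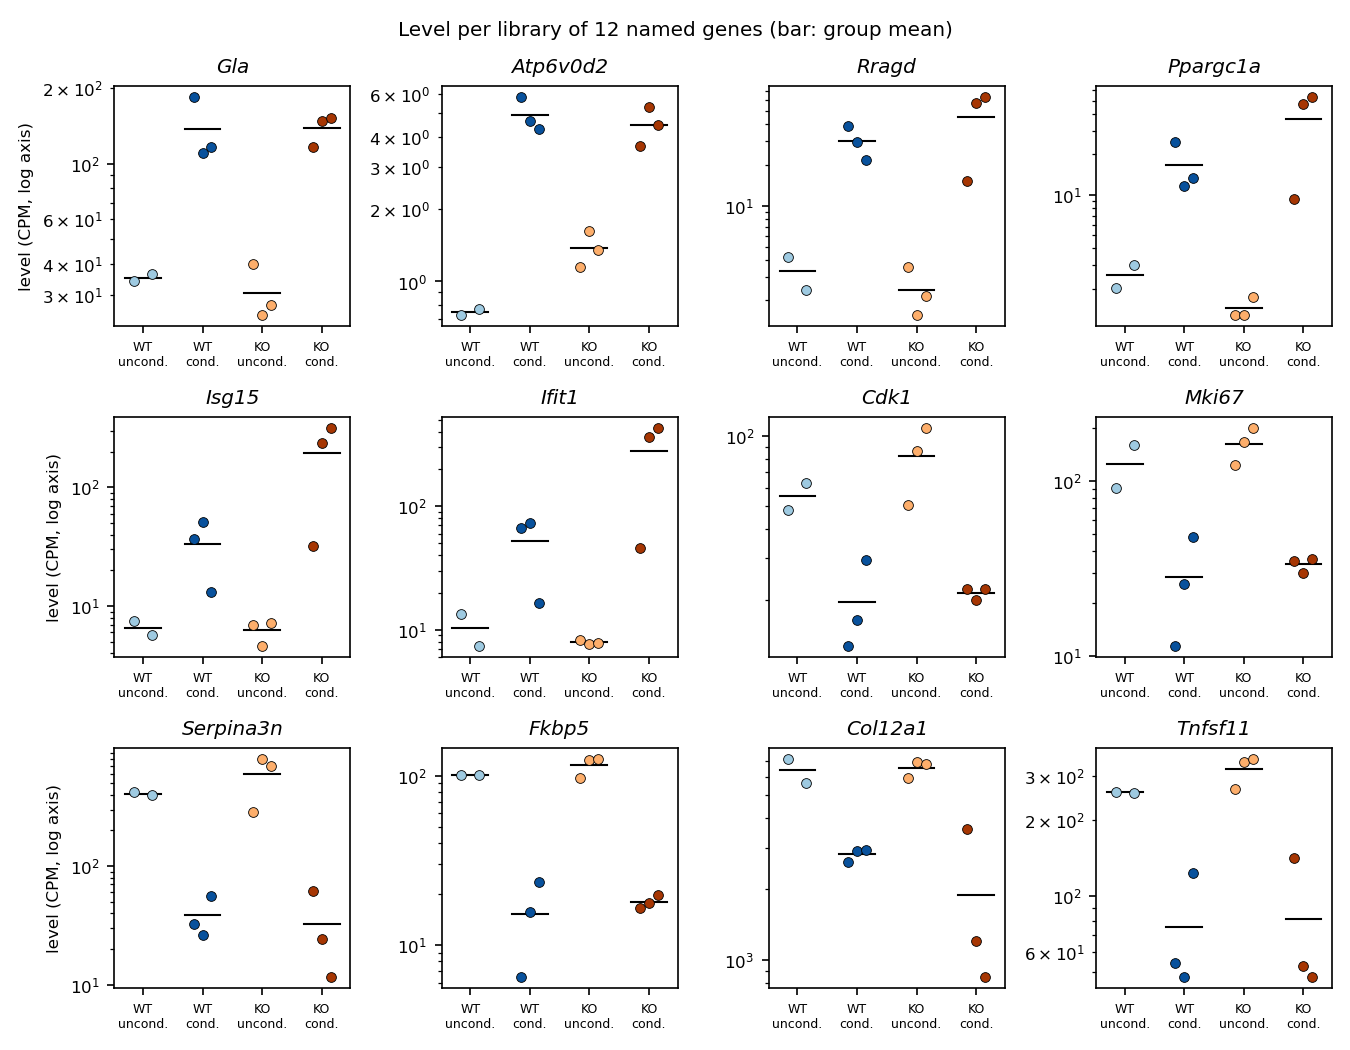
Level in CPM (y axes, log scale) of 12 genes in each distinct library by genotype and medium (x axes); points are libraries and bars are group means. In these 12 genes every conditioned library lies to one side of the unconditioned ones, and for Isg15, Ifit1, Rragd and Ppargc1a conditioned KO library 0 lies below the other conditioned KO libraries.

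Antiviral genes known to be switched on by interferon rose in conditioned medium. Of 34 tested (35 listed), 29 were called higher and none lower, with a median log2 change of 1.84. These were 85.3% and 0%, against 10.4% and 10.1% of all genes. In only 15 of the 34 did every conditioned library lie above every unconditioned one, as did 7.98% of all genes. GAAANNGAA, the core of the element that STAT2 and IRF9 bind as parts of 1 complex, stood in 65.4% of the 26 windows found for this list and in 8.56% of all windows, or 46.2% and 7.13% counting upstream bases only. The 3 called members of smallest p-value that hold it upstream of the start are shown with 1 match in capitals, which reads as TTCNNTTTC where it lies on the other strand (chr19:34583354-34583402, plus strand, chr4:156200868-156200916, minus strand and chr19:34640760-34640808, plus strand).
Ifit3: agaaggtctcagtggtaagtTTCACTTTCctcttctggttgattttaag
Isg15: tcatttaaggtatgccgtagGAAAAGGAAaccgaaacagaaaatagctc
Ifit1: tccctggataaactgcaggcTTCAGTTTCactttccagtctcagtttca

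Isg15, a ubiquitin-like antiviral protein (chromosome 4, 156199424 to 156200818), had 7.49, 5.66, 6.96, 4.58 and 7.21 CPM in the unconditioned libraries and 36.9, 50.8, 13.2, 31.8, 236 and 316 CPM in the conditioned ones. The groups did not overlap, although the conditioned values covered a wide range with KO libraries 1 and 2 on top, and the log2 change was 3.65 (SE 0.61, adjusted p = 0.00345). Ifit1, which binds foreign RNA, had 13.5, 7.34, 8.31, 7.69 and 7.75 CPM and 66.6, 73.3, 16.5, 46.3, 361 and 431 CPM (log2 change 3.73, SE 0.63, adjusted p = 0.00362). Rsad2, the antiviral enzyme viperin, had the largest rise of the genes named by rank, from 0.14–0.705 to 0.927–24.2 CPM (log2 change 4.17, SE 0.74). Mx1, an antiviral GTPase, rose by 3.85 (SE 0.92), with values of 0 to 0.337 and 0.331 to 11.5 CPM that overlapped (adjusted p = 0.0175, and 0.0859 and 0.0581 without unconditioned WT library 0 or 2). Ifit3, counted in 1 entry with the overlapping gene I830012O16Rik, rose by 3.96 (SE 0.55), and Usp18, which removes ISG15 from proteins and dampens interferon signalling, by 3.17 (SE 0.50).

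The transcription factors of the pathway had smaller log2 changes than the genes named above, though Irf7 lay above the list's median of 1.84. Stat2 had a change of 1.34 on the log2 scale (SE 0.26, adjusted p = 0.00647), and Irf9 and Irf7 had 1.32 and 1.91 (SE 0.22 and 0.26, adjusted p = 0.00384 and 0.00152). In WT the list's median log2 change was 1.20 and in KO 2.29. Isg15 had 2.35 in WT and 4.96 in KO, with an adjusted p of 0.818 for the difference. The count of called members fell to 17 and 14 without unconditioned WT library 0 or 2, and was 32 without conditioned KO library 0. Fitted alone, the WT libraries gave 0 called members and the KO libraries 18. Of 14 genes of class I antigen presentation and the immunoproteasome, 6 were called higher and none lower (median 0.61), 3 without unconditioned WT library 2. With all 11 libraries the shares called higher and lower were 42.9% and 0%, against 10.4% and 10.1% of all genes. B2m, the shared light chain of class I molecules, rose from 359.7–633 to 852–1328 CPM (log2 change 1.35, SE 0.19). Nlrc5, a transactivator of class I genes, rose by 1.24 (SE 0.29, adjusted p = 0.0153, and 0.0826 without unconditioned WT library 0).

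Genes of mitosis fell as a block. All 32 listed genes were tested, and all 32 were called lower, against 10.1% of all genes. In each, the 6 conditioned libraries lay below the 5 unconditioned ones, as they did for 8.45% of all genes. Their median log2 change was -2.08 (range -2.51 to -1.11). The count stayed at 32 without any of the doubtful libraries named above, but the WT libraries fitted alone gave 1. TTTGAA, the core of the cell cycle homology region used by many late cell cycle genes, stood in 78.6% of their 28 windows and in 17.9% of all windows. Counting upstream bases only, the shares were 35.7% and 16.0%, so most of these matches lay within the first 50 bases after the start. The 3 members of smallest p-value that hold it upstream of the start are shown around a match, in capitals, where TTCAAA is the same core on the other strand (chr7:80294426-80294471, plus strand, chr10:69352958-69353003, minus strand and chr19:37376332-37376377, plus strand).
Prc1: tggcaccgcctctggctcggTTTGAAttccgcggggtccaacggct
Cdk1: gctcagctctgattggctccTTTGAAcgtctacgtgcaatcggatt
Kif11: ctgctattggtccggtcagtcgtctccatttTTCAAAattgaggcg

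Cdk1, the kinase that drives entry into mitosis (chromosome 10, 69336635 to 69352929), had 48.5, 62.7, 50.8, 86.7 and 108 CPM in unconditioned and 12.6, 16.3, 29.5, 22.1, 19.96 and 22.1 CPM in conditioned libraries. The groups did not overlap, and the log2 change was -1.73 (SE 0.24, adjusted p = 0.00177). Mki67, the gene of the proliferation marker Ki-67, fell from 148 ± 42.01 CPM (SD, n = 5) to 31.04 ± 12.2 CPM (n = 6), with a change of -2.20 on the log2 scale (SE 0.32, adjusted p = 0.00196). Its lowest unconditioned value was above its highest conditioned one (90.6 to 200.1 against 11.4 to 48.1 CPM). Ccnb1 and Ccna2, mitotic cyclins, had log2 changes of -2.0 and -2.29 (SE 0.32 and 0.32). Plk1, a mitotic kinase, and Top2a, which untangles chromosomes, had -2.40 and -2.15 (SE 0.35 and 0.31). Prc1, Racgap1 and Spc24, which serve the spindle midzone, cytokinesis and the kinetochore, had -2.07, -1.66 and -2.46 (SE 0.27, 0.22 and 0.31).

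DNA replication genes had a smaller median change and a wider mix of calls. The shares called lower and higher were 60% and 0%, against 10.1% and 10.4% of all genes. Of 35 tested, 21 were called lower and none higher (median log2 change -0.85), and 8 were called lower without unconditioned WT library 2. Mcm5, a subunit of the replicative helicase, fell from 26.5–51.6 to 5.08–22.97 CPM (log2 change -1.51, SE 0.31, adjusted p = 0.00921, and 0.0505 without unconditioned WT library 2). Pole, a replicative polymerase, and Rrm1, a subunit of ribonucleotide reductase, had -1.55 and -0.82 (SE 0.24 and 0.10). The clamp gene Pcna had -0.57 (SE 0.16, adjusted p = 0.034), a call that ended on leaving out any 1 of 8 libraries (adjusted p up to 0.147). E2f1, a transcription factor of this phase, had 0.04 (adjusted p = 0.804). TTTGGCGC and TTTCCCGC, E2F-type sites, stood in 17.6% and 14.7% of 34 windows of the list and in 0.514% and 1.07% of all windows. Counting upstream bases only, the shares were 8.82% for each, against 0.417% and 0.895%. Counted by gene over whole windows, they were 21.4% and 17.9% of the list's genes with a window, against 1.14% and 2.27% of tested genes with one.

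Of 20 genes of cell cycle inhibitors, the p53 axis and D cyclins, none was called higher and 5 (25%, against 10.1% of all genes) were called lower (median -0.05). Of these, 2 were the mitotic activators Foxm1, counted in 1 entry with 4933413G19Rik, and Mybl2, with log2 changes of -1.53 and -1.69 (SE 0.22 and 0.38; for Mybl2 adjusted p = 0.014, and 0.0736 without unconditioned WT library 2). Cdkn1a and Cdkn1b, the inhibitors p21 and p27, had 0.42 and -0.30 (SE 0.20 and 0.16, adjusted p = 0.164 and 0.197). Without unconditioned KO library 0 both were called, at 0.60 and -0.41 (adjusted p = 0.0249 and 0.0231).

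Genes known to be induced by glucocorticoids were lower in conditioned medium. Of 20 tested, 14 were called lower and none higher (70% and 0%, against 10.1% and 10.4% of all genes), with a median log2 change of -1.28. The count was 8 and 9 without unconditioned WT library 0 or 2. The receptor gene Nr3c1 itself had 0.24 (SE 0.12, adjusted p = 0.172). Steroid levels in the media were not measured in these data. ACANNNTGT, the core of the palindrome that the receptor binds, stood in 20.8% of 24 windows of the list and in 6.85% of all windows. It is capitalised in 2 of the called members that hold it (chr12:104406612-104406660, plus strand and chr10:21978525-21978573, plus strand).
Serpina3n: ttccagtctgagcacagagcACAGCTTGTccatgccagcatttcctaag
Sgk1: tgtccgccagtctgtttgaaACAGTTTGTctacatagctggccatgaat

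Fkbp5, a chaperone that restrains the glucocorticoid receptor, had 101, 100.3, 96.2, 123 and 125 CPM in unconditioned and 6.44, 15.7, 23.4, 16.5, 17.6 and 19.8 CPM in conditioned libraries. The groups were far apart, and the log2 change was -2.70 (SE 0.26, adjusted p = 0.000494). Zbtb16, a transcription factor induced by these hormones, fell from 19.8–27.1 to 0.386–5.41 CPM (log2 change -3.20, SE 0.53). Tsc22d3, the anti-inflammatory mediator GILZ, had -1.38 (SE 0.15, adjusted p = 0.00068) and Klf9, another early target, -0.65 (SE 0.14, adjusted p = 0.00988, and 0.0572 without unconditioned WT library 0). Serpina3n, a secreted protease inhibitor, had 419, 398, 288, 805 and 695 CPM and 32.8, 26.4, 56.1, 61.2, 24.3 and 11.5 CPM (log2 change -3.81, SE 0.45, adjusted p = 0.000958). Its near copies Serpina3m and Serpina3i had the 2 most negative log2 changes of the named genes, -6.09 and -4.24 (SE 0.70 and 0.67), and reads may have been split between these paralogs. Per1, a clock gene that also answers to glucocorticoids, had -0.86 (SE 0.21, adjusted p = 0.0172, and 0.0553 and 0.0687 without unconditioned WT library 0 or 2). Of 18 clock genes 3 were called higher and 4 lower (16.7% and 22.2%, against 10.4% and 10.1% of all genes, median 0.14). Arntl and Clock, the core activators, had -0.16 and 0.15 (adjusted p = 0.344 and 0.133).

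**Figure D3:**
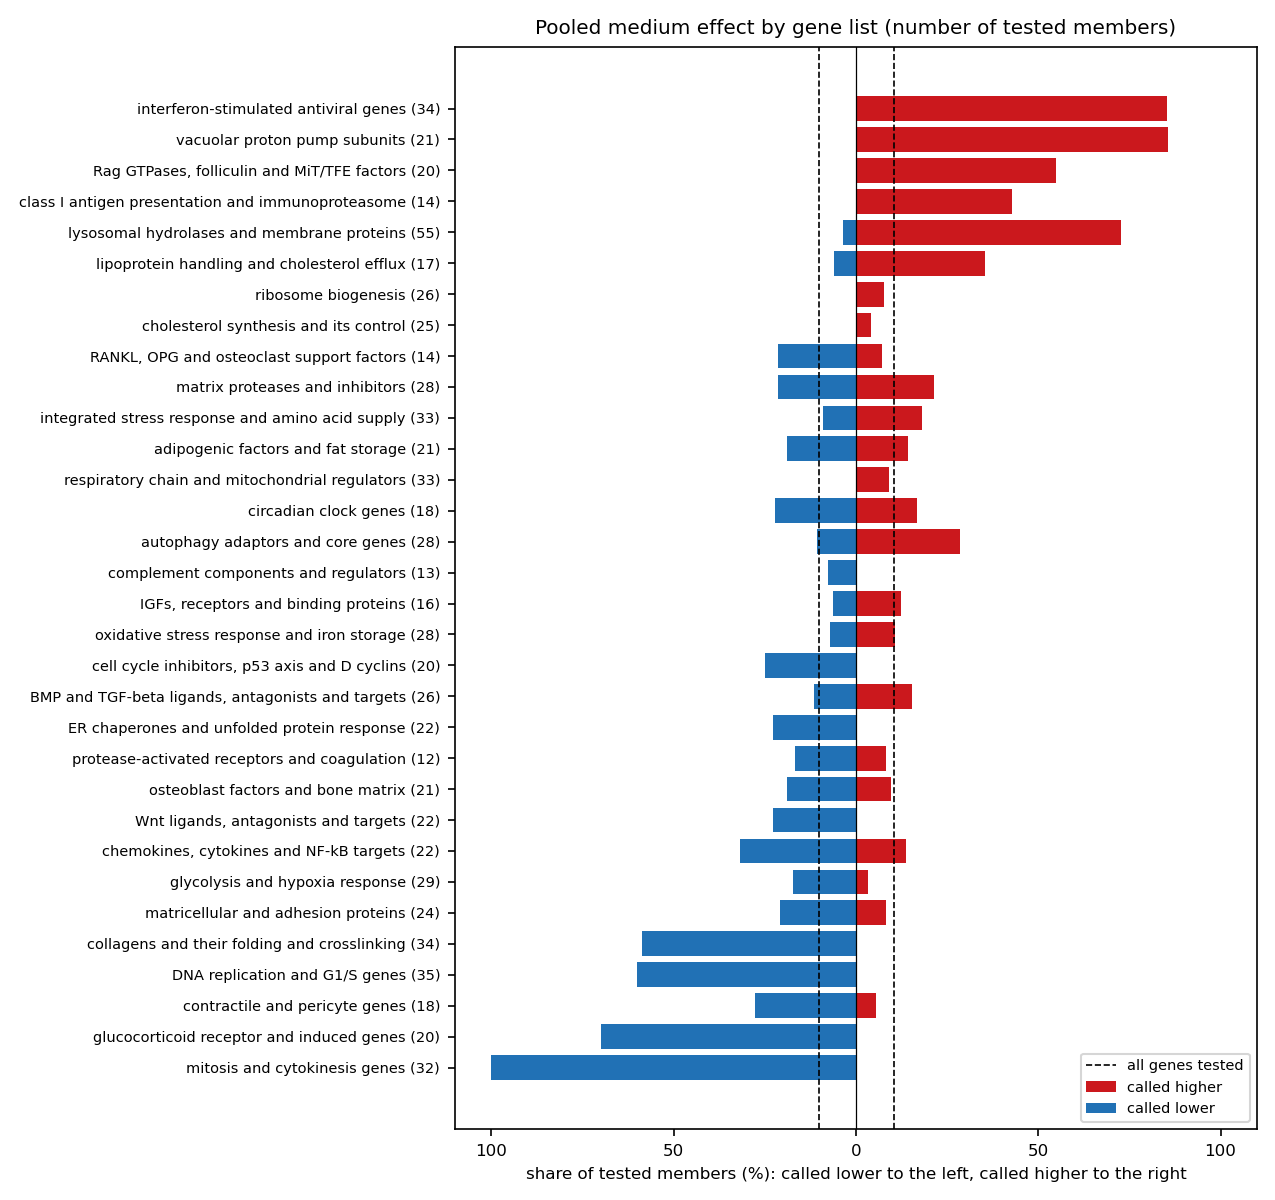
Share of tested members called higher (right, red) or lower (left, blue) in the pooled comparison (x axis, %) for each gene list (y axis, number tested in brackets); dashed lines mark the shares over all genes tested. The bars for mitosis (100% lower), the proton pump (85.7% higher) and interferon-stimulated genes (85.3% higher) reach farthest past the lines at 10.4% and 10.1%.

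The collagen matrix and the enzymes that fold and crosslink it were lower. The shares called lower and higher were 58.8% and 0%, against 10.1% and 10.4% of all genes. Of 34 tested genes 20 were called lower and none higher (median log2 change -0.76), and 11 were called lower without unconditioned WT library 0. Col12a1, a collagen that decorates fibrils, was among the 8 most abundant called genes. It had 7129, 5617, 5892, 6887 and 6769.6 CPM in unconditioned and 2612, 2896, 2942, 3609.6, 1207 and 848 CPM in conditioned libraries, with no overlap and a change of -1.48 on the log2 scale (SE 0.33, adjusted p = 0.0131, and 0.0564 without unconditioned WT library 0). Col5a1 and Col5a2, whose chains nucleate collagen fibrils, fell from 3979 ± 554 to 2182 ± 468 CPM and from 4273 ± 1212 to 2323 ± 477 CPM (SD, n = 5 and 6). Their log2 changes were -0.85 and -0.81 (adjusted p = 0.0104 and 0.0193, and 0.0597 and 0.0917 without that library). Col6a1 and Col6a2, the genes of pericellular beaded filaments, had log2 changes of -1.53 and -1.57 (SE 0.23 and 0.19). Lox, which crosslinks collagen, had -1.78 (SE 0.32, adjusted p = 0.00487), and P4ha2, a prolyl hydroxylase, -1.10 (SE 0.17). Serpinh1, the collagen chaperone, had -0.66 (SE 0.16, adjusted p = 0.0185), a call that ended on leaving out any 1 of 4 libraries (adjusted p up to 0.0859). The main chain gene Col1a1 had -0.73 (SE 0.28, adjusted p = 0.0859) and did not pass the test, but did without conditioned WT library 1 (-0.99, adjusted p = 0.0161).

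Matricellular genes leaned lower, and proteases were mixed. Of 24 matricellular and adhesion genes 2 were called higher and 5 lower (8.33% and 20.8%, against 10.4% and 10.1% of all genes, median -0.56). Their log2 changes were negative in 20 and positive in 4. Tnc, a tenascin of growing tissue, had -1.28 (SE 0.18). Thbs1, thrombospondin 1, had -0.90 (SE 0.25, adjusted p = 0.0335), which passed in only 3 of the 11 fits that left out 1 library. Tnn, the tenascin of osteogenic regions, fell from 216–628 to 1.46–71.9 CPM (log2 change -3.81, SE 0.86, adjusted p = 0.0139), with the lowest values in conditioned KO libraries 1 and 2. In the other direction, Tnxb, the tenascin of soft connective tissue, rose from 0.809–4.27 to 7.49–37.7 CPM (log2 change 2.70, SE 0.32). Of 28 proteases and inhibitors 6 were called higher and 6 lower (21.4% each). Mmp14, a membrane collagenase, rose by 0.93 (SE 0.15, adjusted p = 0.00302). Adamts12, a metalloprotease of cartilage matrix, had -1.94 (SE 0.30, adjusted p = 0.00243). The inhibitors Timp1 and Timp3 were called in opposite directions (-1.11 and 1.16, SE 0.33 and 0.35, adjusted p = 0.0393 and 0.0399), calls that ended on leaving out any 1 of 9 and 8 libraries. Mmp13, an osteoblast collagenase, had 0.37 (SE 0.39, adjusted p = 0.527).

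Osteoblast genes went lower more often than higher, and most were not called. Of 21 tested (26 listed), 2 were called higher and 4 lower (9.52% and 19%, against 10.4% and 10.1% of all genes, median -0.31). The log2 change was negative in 14 and positive in 7. All 5 tested osteoblast markers had negative changes, with 1 of them called. Alpl, the phosphatase that frees phosphate for mineral, fell from 60.9 ± 31.98 to 20.6 ± 9.05 CPM (SD, n = 5 and 6; log2 change -1.43, SE 0.34, adjusted p = 0.0177, and 0.077 without unconditioned WT library 2). Enpp1, which makes the mineral inhibitor pyrophosphate, had -1.41 (SE 0.25) and Smpd3, a sphingomyelinase needed for mineralisation, -1.09 (SE 0.25, adjusted p = 0.0153, and 0.0877 without that library). The lineage factors Runx2 and Sp7 had -0.16 and -1.22 (SE 0.09 and 0.67, adjusted p = 0.205 and 0.216), and -0.21 and -2.36 without conditioned KO library 0 (adjusted p = 0.0359 and 0.00339). Bglap2, an osteocalcin gene with near-identical copies, was called higher by 2.68 (SE 0.66, adjusted p = 0.0186), but it rests on 4, 4, 5, 0 and 1 fragments in unconditioned and 25, 23, 8, 13, 41 and 13 in conditioned libraries and had an adjusted p of 0.0841 and 0.08 without unconditioned WT library 0 or 2.

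Among signals to osteoclasts, RANKL fell. Tnfsf11, the gene of RANKL, which drives osteoclast formation (chromosome 14, 78277446 to 78308043), had 259.7, 257, 266, 340.4 and 351 CPM in unconditioned and 54.3, 47.6, 123, 142, 52.8 and 47.6 CPM in conditioned libraries. The groups did not overlap, the conditioned values nearest to the unconditioned ones were those of WT library 2 and KO library 0, and the log2 change was -1.88 (SE 0.34, adjusted p = 0.00487). Tnfrsf11b, the gene of the decoy OPG, had 18.2 to 36.4 CPM without and 22.03 to 55.9 CPM with conditioning (log2 change 0.67, SE 0.24, adjusted p = 0.0773, and 0.0423 without unconditioned KO library 0). Csf1, the growth factor of osteoclast precursors, had -0.17 (SE 0.19, adjusted p = 0.559). Of 14 tested genes of the list, 1 was called higher and 3 lower (7.14% and 21.4%, against 10.4% and 10.1% of all genes). The one called higher was Ccl2, a monocyte chemokine, with 0.74 (SE 0.19, adjusted p = 0.0241), a call that ended on leaving out any 1 of 6 libraries.

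In the list of chemokines, cytokines and targets of the factor NF-kB, 3 of 22 genes were called higher and 7 lower. These were 13.6% and 31.8%, against 10.4% and 10.1% of all genes (median -0.33). The highest log2 change of this list, 0.74, is that of Ccl2 above, so this gene may be counted in both lists. Il1rn, the antagonist of interleukin 1, had 14.4, 8.74, 5.68, 27.99 and 44.7 CPM and 1.22, 1.62, 3.18, 1.18, 2.31 and 2.75 CPM (log2 change -3.08, SE 0.50, adjusted p = 0.00312). Cxcl5, a neutrophil chemokine, and Ptx3, a soluble pattern receptor, had -1.21 and -1.43 (SE 0.13 and 0.21). Il6, an inflammatory cytokine, had 21.02, 18.2, 12.5, 59.1 and 50.2 CPM in unconditioned and 11.8, 26.3, 7.55, 14.4, 157 and 186 CPM in conditioned libraries. These values overlapped, and the pooled change of 0.59 on the log2 scale (SE 0.63, adjusted p = 0.527) averages -0.37 in WT and 1.55 in KO, whose difference had an adjusted p of 0.818.

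Genes of lipoprotein handling and cholesterol efflux were called higher more often than all genes, at 35.3% against 10.4%. Their log2 changes were positive in 14 and negative in 3, while fat storage genes were called in both directions. Of 17 genes of lipoprotein handling and cholesterol efflux, 6 were called higher and 1 lower (median 0.57), and 2 were called higher without unconditioned WT library 2. Apoe, the gene of a lipid carrier, rose from 13.96–33.9 to 55.9–102 CPM (log2 change 1.92, SE 0.22, adjusted p = 0.000933). Gpnmb, a glycoprotein of lysosome-related organelles also known as osteoactivin, had 95.3, 99.2, 97.9, 40.6 and 38.7 CPM and 964, 685, 737, 638, 574 and 452 CPM, with a change of 3.13 on the log2 scale (SE 0.28, adjusted p = 0.000354). Cholesterol synthesis genes had 1 call of 25, Tm7sf2, which shares its entry with Vps51 (0.47, SE 0.10, adjusted p = 0.0104, and 0.0632 without unconditioned WT library 0). Of 21 adipogenic genes 3 were called higher and 4 lower (14.3% and 19%, against 10.4% and 10.1% of all genes). Fabp4, a fatty acid carrier, and Angptl4, an inhibitor of lipoprotein lipase, had -1.84 and -2.03 (SE 0.37 and 0.17), and the master factor Pparg 0.53 (SE 0.22, adjusted p = 0.106, and 0.0471 without conditioned WT library 1).

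Most genes of the stress lists were not called. Of 33 genes of amino acid supply and the integrated stress response, 6 were called higher and 3 lower (18.2% and 9.09%, against 10.4% and 10.1% of all genes, median 0.15). Atf3, a stress-induced transcription factor, had 1.45, 1.89, 1.62, 2.40 and 2.76 CPM in unconditioned and 4.25, 8.10, 3.24, 2.86, 81.00 and 183 CPM in conditioned libraries. Its highest values were those of conditioned KO libraries 1 and 2 (1.64 in WT, 5.29 in KO, adjusted p for the difference = 0.818), and the pooled log2 change was 3.46 (SE 0.86, adjusted p = 0.0204). Without unconditioned WT library 0 or 2 the adjusted p was 0.101 and 0.0911. Ddit3, the factor CHOP, rose by 2.26 (SE 0.55, adjusted p = 0.0184, and 0.0768 and 0.0965 without these libraries), while Asns, an amino acid synthase of the same response, had -0.45 (SE 0.29, adjusted p = 0.292). Of 22 genes of ER chaperones and the unfolded protein response 5 were called lower (22.7%) and none higher. P4hb and Pdia6, disulfide isomerases, had -0.77 and -0.77 (SE 0.13 and 0.14). In the oxidative stress and iron list, 3 of 28 were called higher and 2 lower (10.7% and 7.14%), shares near those of all genes. Hmox1, which breaks down haem, and Ftl1, a ferritin chain, rose by 1.54 and 1.28 (SE 0.35 and 0.17); for Hmox1 the adjusted p was 0.0139, and 0.076 and 0.059 without these libraries.

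Energy and growth genes were mostly not called. Of 29 genes of glycolysis and the hypoxia response, 1 was called higher and 5 lower (3.45% and 17.2%, against 10.4% and 10.1% of all genes, median -0.54). Without conditioned KO library 0, however, 19 were called lower. Slc2a1, the glucose transporter GLUT1, had -0.68 (SE 0.11, adjusted p = 0.00353), and Egln3, an oxygen sensor, -1.24 (SE 0.22, adjusted p = 0.0044). Of 33 genes of the respiratory chain and its regulators 3 were called higher (9.09%), 1 of them Ppargc1a. Of 26 ribosome biogenesis genes 2 were called higher (7.69%), and 17 without conditioned KO library 0. Of 13 complement genes 1 was called lower (7.69%) and none higher. Of 12 genes of protease-activated receptors and coagulation 1 was called higher and 2 lower (8.33% and 16.7%).

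Growth factor pathways and contractile genes are read against the 10.4% of all genes called higher and the 10.1% called lower. Of 22 Wnt genes 5 were called lower (22.7%) and none higher, among them the ligand Wnt4 (-1.86, SE 0.19, adjusted p = 0.000595) and Nkd2, a feedback inhibitor (-1.75, SE 0.33, adjusted p = 0.0059). Of 26 BMP and TGF-beta genes 4 were called higher and 3 lower (15.4% and 11.5%). Bmp2 and Bmp6, bone-inducing ligands, rose by 1.23 and 0.98 (SE 0.29 and 0.19), Bmp2 with an adjusted p of 0.0156, and 0.0805 and 0.0504 without unconditioned WT library 0 or 2. Of 16 IGF genes 1 was called lower and 2 higher, Igfbp5, a binding protein abundant in bone, by 1.74 (SE 0.36, adjusted p = 0.00977, and 0.0566 and 0.0549 without these libraries) and Igf2r, which also carries enzymes to lysosomes, by 0.74 (SE 0.11). Of 18 contractile and pericyte genes 1 was called higher and 5 lower (5.56% and 27.8%, median -1.04), and 13 were called lower without conditioned KO library 0. The one called higher was Cspg4, the pericyte proteoglycan NG2, with 1.26 (SE 0.11, adjusted p = 0.00035) and every conditioned library above every unconditioned one. Rgs5, another pericyte marker, had -1.95 (SE 0.34, adjusted p = 0.00446), and Acta2, smooth muscle actin, -1.05 (SE 0.43, adjusted p = 0.112, and 0.000493 without that library). The summed smooth muscle and pericyte markers given above, which do not include Cspg4, were lower in every conditioned library than in any unconditioned one, narrowly so for the highest (1092 against 1101 CPM), and the part of such cells was not tested.

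**Figure D4:**
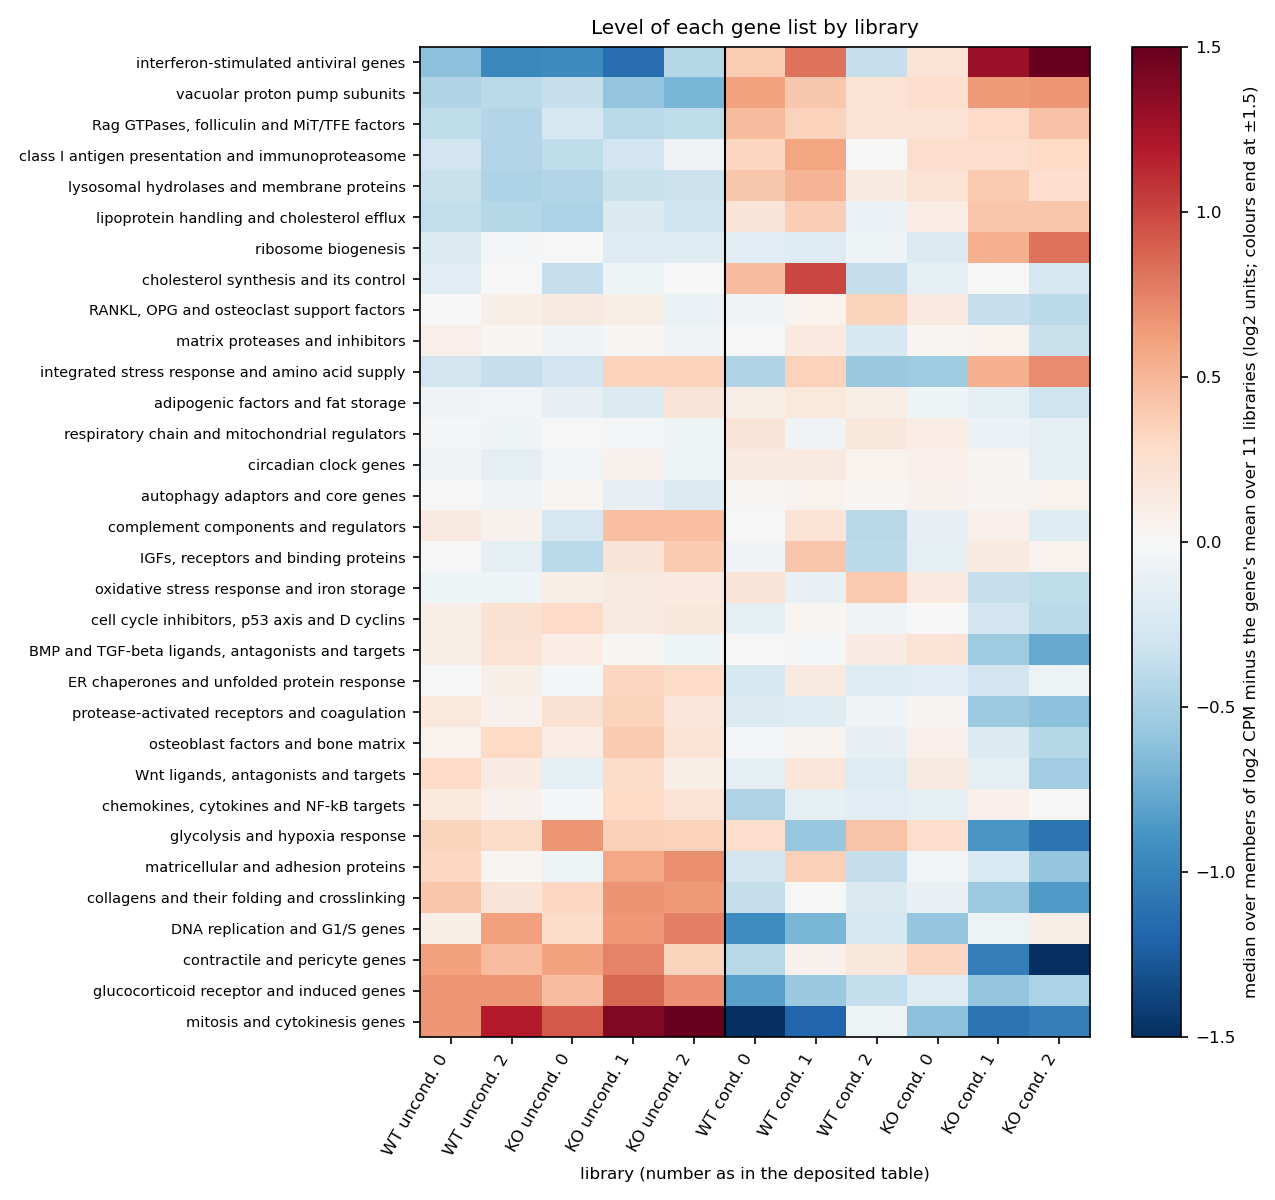
Level of each gene list (y axis) in each library (x axis, unconditioned left of the line), as the median over members of log2 CPM after subtraction of each gene's mean over the 11 libraries (colour, log2 units). Proton pump genes turn from blue to red across the line, interferon-stimulated genes do so except in conditioned WT library 2 (-0.34), and mitosis genes turn from red to blue, with conditioned WT library 2 and KO library 0 the palest conditioned columns for mitosis genes.

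Several of the genes with the largest changes belong to none of these groups. Hvcn1, a voltage-gated proton channel, rose from 3.15, 1.82, 1.15, 1.48 and 3.03 CPM to 21.1, 29.2, 10.1, 8.84, 29.6 and 28.6 CPM (log2 change 3.28, SE 0.46, adjusted p = 0.00168). Ajap1, a protein of adherens junctions, and Cd200r4, a member of the CD200 receptor family, rose by 3.61 and 3.14 (SE 0.51 and 0.38). Iyd, an iodotyrosine deiodinase, rose by 3.29 (SE 0.79, adjusted p = 0.018), with 0.965, 2.23, 0.662, 0.996, 15.7 and 14.8 CPM in the conditioned libraries, so its highest values were those of KO libraries 1 and 2, and an adjusted p of 0.0828 and 0.084 without unconditioned WT library 0 or 2. Among the falls, Prdm1, a repressor known from lymphocyte maturation, went from 1.35–3.03 to 0–0.216 CPM (log2 change -4.18, SE 0.57, adjusted p = 0.00155). Mchr1, a receptor for melanin-concentrating hormone, had 1.19 to 5.53 and 0 to 0.397 CPM (log2 change -4.09, SE 0.63). Hif3a, a hypoxia-inducible factor, and Hsd11b2, which inactivates cortisol, had -3.50 and -3.26 (SE 0.61 and 0.62). Several of these genes had 0 or 1 fragment in some conditioned libraries, so that their fitted log2 changes depend on the small count added in the fit and are no exact measure of size. H19, a long noncoding RNA of fetal tissue and among the most abundant called genes, fell from 4081 ± 1335 to 1894 ± 980.2 CPM (SD, n = 5 and 6; log2 change -1.13, SE 0.35, adjusted p = 0.0461), a call that ended on leaving out any 1 of 8 libraries (adjusted p up to 0.153).

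The pooled value stands for both genotypes only as far as their effects are alike. Taken apart in the same fit, 242 genes were called in WT (1.78%) and 2482 in KO (18.2%). The WT contrast rests on 2 unconditioned libraries and the KO contrast on 3. The test of the difference between the genotypes' medium effects called 0 of 13603 genes (edgeR; smallest adjusted p = 0.818), and 414 genes had an unadjusted p under 0.05, against the same 680. This does not show that the effects are equal. For Gla the change was 1.96 in WT and 2.18 in KO, for Mki67 -2.13 and -2.28, for Fkbp5 -2.73 and -2.68, and for Rsad2 3.50 and 4.83.

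**Figure D5:**
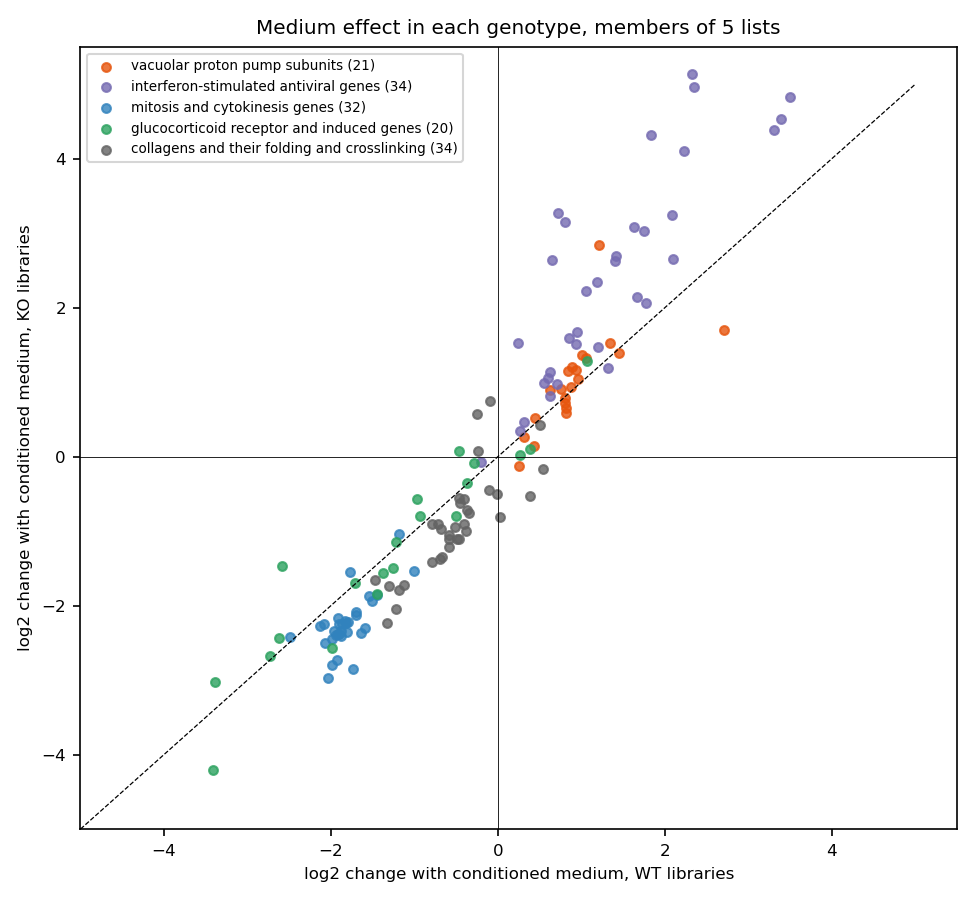
Log2 change with conditioned medium in WT (x axis) and in KO (y axis) for the tested members of 5 gene lists; each point is a gene, and the dashed line marks equal change. Interferon-stimulated genes lie mostly above the line (median 1.20 in WT and 2.29 in KO), the proton pump genes lie close to it (0.84 and 0.93), and no gene passed the test of the difference.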

How the data were processed

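RNA of 12 samples, 3 per genotype and medium, was sequenced from TruSeq libraries. No label states that strand was kept, so reads of overlapping or antisense genes cannot be told apart, and entries with several symbols are read as 1. The tools were Cufflinks and Cuffdiff 2.1.1, TopHat2 2.0.9 and CASAVA 1.8.2 with build GRCm38 (mm10), per the submitters' processing notes. The deposited Cuffdiff table holds, per the file headers, raw fragments per gene and library, which are estimated counts (94.3% are exactly whole, with a tolerance of 0). It also holds FPKM values that the authors scaled, per the file headers, and these served only for 2 alternative fits. The other deposited columns, such as Cuffdiff's p-values, log2 folds and scores, were not used.

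In the unconditioned WT group, libraries 0 and 1 both held 16309121 fragments, with equal counts for 91.8% of genes, and were used as 1 library. Entries without a symbol (1714, with 2.69% to 3.10% of a library's fragments) were left out of totals and tests. Fragments were rounded and fitted with edgeR 4.0.16 in R 4.3.3: filterByExpr, TMM scaling, robust quasi-likelihood, 1 mean per group, 7 residual degrees of freedom. A design with 12 libraries would have had 8. The pooled contrast averages both genotypes' medium effects. P-values were adjusted over 13603 genes by the Benjamini-Hochberg method, and genes under 0.05 are called. SE is the size of the log2 change over the square root of F, and CPM uses TMM-scaled totals. The biological coefficient of variation was 0.238. On simulated counts for this comparison (13431 genes, 100 changed genes per size), 93% of genes changed by log2 1 and 100% of those changed by log2 2 were recovered. There were 5 false calls. The simulated libraries held no genotype difference and no deviating library, and the least abundant genes were not among the changed ones. These rates therefore do not carry over to the real libraries. Separate animals per sample are not stated in the labels, and p-values then cover only the spread among the libraries, which may be technical.

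Named genes were the 12 largest rises and falls (called, 1 symbol, mean of at least 1 CPM, no overlap within either genotype), the 8 most abundant called genes, up to 4 called members of smallest p per list, preset key members, and F2rl1; genes with a printed stretch are named too, and a few results are not reported here. The members and lists were chosen with earlier results of these data known. Alternatives were DESeq2 1.42.0, limma 3.58.1 on log2(FPKM + 1) or log2(FPKM + 0.1), other scalings, filters and designs, and each library left out.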

Additional observations from a re-analysis of the deposited data

How the results depend on the processing

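The pooled medium effect called 2787 genes with edgeR, 1416 higher and 1371 lower, with 437 and 505 of them over 2-fold. Leaving out 1 library gave 1214 to 5651 called genes, 556 to 2842 higher and 654 to 2809 lower, and 259 to 625 and 354 to 802 over 2-fold. Of 132 named genes that were called, 101 stayed called without any single library, and leaving out unconditioned WT library 0 or 2 ended the most calls, with 1 library of that group left. The KO libraries alone called 534 genes (263 higher, 271 lower; 196 and 226 over 2-fold), the WT libraries alone 362 (216 and 146; 116 and 80), and the fit without both KO libraries of number 0 called 6587 (3333 and 3254; 674 and 842). Library totals without TMM called 2410 higher. A filter at a mean of 50 fragments left 290 genes higher by over 2-fold, and limma on log2(FPKM + 1) left 168 higher and 289 lower by over 2-fold. DESeq2 called 3649 genes, edgeR with DESeq2's size factors 2759, an additive design 3081, no genotype term 2966, no filter 2491 of 18108, and all 12 deposited libraries 4053. Of the genes called with all libraries, 1 had the opposite sign in the KO libraries alone and none in any other setting run. Of the named genes that were not called, 4 changed sign. E2f1 had -0.12 in KO alone, -0.02 without both KO libraries of number 0, and -0.02 to 0.09 over single libraries left out. Tfe3 had 0.09 without TMM, 0.02 without both KO libraries of number 0, and -0.09 to 0.05 over single libraries left out. In WT alone Il6 and Tfeb had -0.37 and 0.02. Library numbers are not tied to titles, and deviations of same-numbered libraries correlated at 0.354, 0.241 and 0.317 in KO and -0.139 and 0.447 in WT. The value of -0.139 takes the repeated unconditioned WT library as number 0. Taken as number 1, it correlated with conditioned WT library 1 at 0.487. Deviations of the 2 unconditioned WT libraries mirror each other, so these values cannot decide whether the numbers pair libraries. The main fit did not pair them, and the block fit that follows keeps the repeated library under number 0. With the number as a replicate block within genotype 2978 genes were called (1420 higher, 1558 lower), among them 2279 of the 2787 (81.8%). Under the block, Acta2, Asns, Cdkn1a, Col1a1 and Tnfrsf11b gained a call (adjusted p = 0.0434, 0.0126, 0.02, 0.0235 and 0.0158), and Alpl, Atf3, Fabp4, Gnpda2, Iyd and Timp3 lost theirs (0.0593, 0.0604, 0.0765, 0.0876, 0.0651 and 0.127). Conditioned KO library 1 correlated best with a library of another number (0.283). Genes at a few fragments, such as Bglap2, are limited by depth.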

Other observations

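Further groups were looked at after their values had been seen, so their counts describe these libraries and support nothing beyond them. Of 10 subunits of retromer and of the HOPS complex, which sort and fuse endosomes and lysosomes, 6 were called higher and none lower (edgeR). These were 60% and 0%, against 10.4% and 10.1% of all genes, and the median log2 change was 0.62. Vps26a, a retromer subunit, rose from 81.1–97.3 to 152–207 CPM (log2 change 0.95, SE 0.09, adjusted p = 0.000473), and Vps11 and Vps18, HOPS core subunits, rose by 0.96 and 0.94 (SE 0.13 and 0.13). Clcn7 and its partner Ostm1, which exchange chloride and protons across the lysosomal membrane and without which bone is not resorbed, rose by 1.42 and 1.15 (SE 0.17 and 0.14, adjusted p = 0.00105 and 0.0012). All conditioned libraries exceeded all unconditioned ones for these 5 genes.

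Enzymes of amino sugars moved in both directions, with 5 of 12 called higher and 4 lower (41.7% and 33.3%, against 10.4% and 10.1% of all genes). Renbp had the smallest adjusted p of all genes tested. It encodes an epimerase that acts on N-acetylmannosamine in the breakdown of sialic acid, and it had 15.2, 12.3, 13.5, 11.6 and 13.4 CPM in unconditioned and 76.97, 73.4, 57.9, 53.6, 62.7 and 57.5 CPM in conditioned libraries (log2 change 2.25, SE 0.11, adjusted p = 2.83e-05). Gnpda1 and Amdhd2, which return amino sugars to glycolysis, rose by 1.60 and 1.10 (SE 0.11 and 0.15). Gnpda2, a relative of Gnpda1, was called lower (-0.43, SE 0.12, adjusted p = 0.0339), a call that ended on leaving out any 1 of 9 libraries. Uap1 and Pgm3, enzymes that build UDP-N-acetylglucosamine, and Nans, which makes sialic acid, fell, with log2 changes of -0.63, -0.38 and -0.51 (SE 0.15, 0.09 and 0.10). Leaving out unconditioned WT library 0 or 2 ended the calls of Uap1 (adjusted p = 0.0706 and 0.0589) and Pgm3 (0.0671 and 0.0628). Uap1l1, a relative of Uap1, rose by 2.89 (SE 0.23).

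The metalloreductases of the STEAP family moved in both directions. Steap3 rose from 17.4–21.95 to 32.9–77.5 CPM (log2 change 1.29, SE 0.15), while Steap1 and Steap4 fell, with log2 changes of -0.73 and -1.62 (SE 0.09 and 0.19). Among cytokine receptors, Il6st, the shared signal chain gp130 of the interleukin 6 family, fell from 2974 ± 345 to 1023 ± 349 CPM (SD, n = 5 and 6; log2 change -1.54, SE 0.24, adjusted p = 0.00258). Il1r1, the interleukin 1 receptor, had -1.46 (SE 0.18) and Tlr4, the receptor for bacterial lipopolysaccharide, 0.90 (SE 0.12). All 8 genes of condensin subunits, which compact chromosomes, were called lower, against 10.1% of all genes (median -1.27).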
